A study of Mus musculus with 12 samples.

Results

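The p200 genes Mndal, Ifi202b, Ifi203 and Ifi204 were followed through every probe set annotated to at least one of them on the mouse expression array. A probe set is the group of short probes whose combined signal stands for a transcript. The annotation gave 10 such probe sets among the 45101 in the table. Of these, 5 carried 1 gene alone (2 for Mndal and 1 each for Ifi202b, Ifi203 and Ifi204) and 5 were shared with other genes or loci. One of the shared sets belonged to Mndal, Ifi204, Ifi211 and Ifi205 together, 1 to Ifi202b and the locus LOC100044068, and 3 to Ifi203 with the pseudogene Ifi203-ps and further loci.

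The samples were mouse embryonic fibroblasts (MEFs), connective tissue cells grown from mouse embryos, in 6 groups of 2 arrays. The groups were AMN107-IFNg, AMN107-IFNa, AMN107, IFNg, IFNa and DMSO. AMN107 is nilotinib, an inhibitor of ABL and related kinases, and DMSO is its solvent; IFNa is interferon alpha and IFNg interferon gamma, each given for 6 h. All cells were kept in the same serum-containing medium, and each group's 2 arrays are labelled as biological replicates. The mouse strain, the number of embryos, the doses and the length of AMN107 treatment are not given in the sources used here, and the labels do not say whether the groups without AMN107 that received interferon also received DMSO.

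The p200 proteins share a HIN domain that binds DNA, and most of them also carry a pyrin domain that joins them to other proteins. Type I interferons such as IFNa act through a complex that holds STAT2 and IRF9 on interferon-stimulated response elements (ISREs), whereas IFNg acts through gamma-activated sites (GAS) and through IRF1, so a p200 gene can respond to either. The mouse family lies as one cluster of similar genes, which makes probes for one member prone to bind the transcript of another. In the RefSeq gene table, Ifi204, Ifi203-ps, Mndal, the pseudogene Gm21031, Ifi211, Ifi203 and Ifi202b follow each other in this order on mouse chromosome 1. Ifi202b levels are known to differ between inbred strains.

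RefSeq promoter windows (build GRCm38.p6, 250 bases before to 50 after a gene start) were present for Mndal (2 windows), Ifi203 (2 windows) and Ifi202b (1 window). They were searched on both strands for the ISRE core GAAANNGAAA, which 3.44% of all 32851 windows in the table held, and for the GAS pattern TTCNNNGAA, which 8.3% held. The window of Mndal at chr1:173880138-173880437 and that of Ifi203 at chr1:173942443-173942742, both on the minus strand, were identical at 282 of 289 aligned bases (97.6%). They are shown because both held the ISRE core, at positions -36 to -27 in Mndal and -35 to -26 in Ifi203, and the window of Ifi202b at chr1:173982795-173983094 (minus strand) because it held GAS instead, at -148 to -140. Capitals mark the matched bases. Bases before the start have negative positions, the base at the start is 1, and no base is counted as 0.
Mndal, second window: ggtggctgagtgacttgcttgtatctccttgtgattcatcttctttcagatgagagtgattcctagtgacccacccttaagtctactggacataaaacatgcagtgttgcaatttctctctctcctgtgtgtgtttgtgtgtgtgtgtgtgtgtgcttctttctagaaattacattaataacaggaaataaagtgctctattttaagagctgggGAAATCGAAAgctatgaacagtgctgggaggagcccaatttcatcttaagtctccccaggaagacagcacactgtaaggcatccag
Ifi203, first window: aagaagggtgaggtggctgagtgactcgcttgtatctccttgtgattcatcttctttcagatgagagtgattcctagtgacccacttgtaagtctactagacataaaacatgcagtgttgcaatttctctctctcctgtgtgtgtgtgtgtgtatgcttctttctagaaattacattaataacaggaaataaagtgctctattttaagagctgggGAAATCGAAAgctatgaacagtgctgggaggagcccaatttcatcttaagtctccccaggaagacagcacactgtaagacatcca
Ifi202b: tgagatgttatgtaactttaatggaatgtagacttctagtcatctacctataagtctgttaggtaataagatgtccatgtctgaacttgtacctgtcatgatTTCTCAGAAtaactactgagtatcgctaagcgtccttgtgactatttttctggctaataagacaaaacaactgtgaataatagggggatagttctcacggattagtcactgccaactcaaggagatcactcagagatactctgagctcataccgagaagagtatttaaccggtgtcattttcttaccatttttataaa

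The matched bases were GAAATCGAAA in both Mndal and Ifi203. The other window of Mndal (chr1:173879909-173880208) held an ISRE core on the opposite strand at -54 to -45, and the other window of Ifi203 (chr1:173942623-173942922) held neither pattern. The 2 windows of each gene overlap on the genome. A match describes letters in these windows and does not show that a factor binds there.

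**Figure D1:**
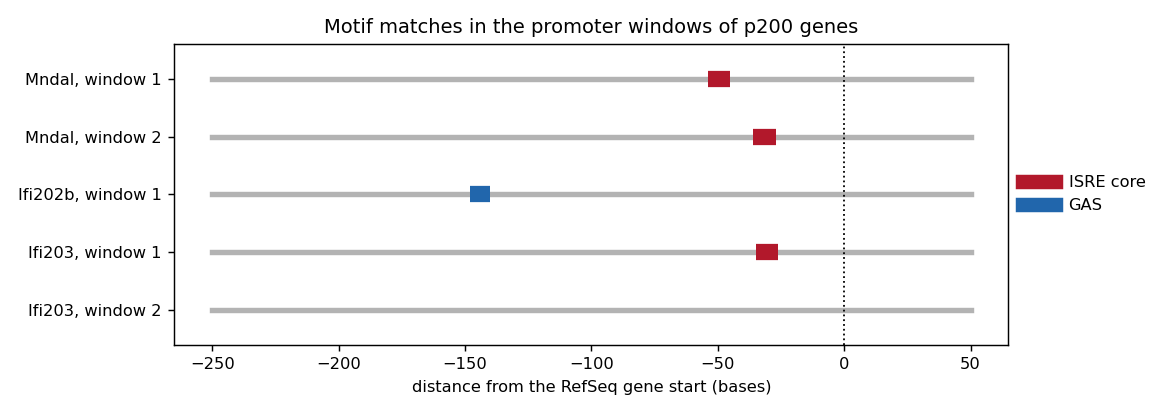
Motif matches in the RefSeq promoter windows of Mndal, Ifi202b and Ifi203. Each grey line is a window, the x axis is the distance in bases from the RefSeq gene start, red blocks are ISRE core matches and the blue block is the GAS match; the ISRE cores sit within 54 bases of the start and the GAS match at -148 to -140.

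The values are linear probe set signals, a brightness in arbitrary units that combines the probes of a set. Array medians ran from 20.6 to 22.8. One array stood apart: IFNa replicate 2 had a ratio of 5' to 3' signal of 0.0252 for GAPDH, against 1.07 to 1.16 on the other 11 arrays, and of 0.212 for actin, against 0.676 to 0.830. The SD of the log2 difference between replicates was 0.435 in IFNa and 0.131 to 0.157 in the other groups. Of 13 fibroblast markers on the array, 9 lay above the array median on all 12 arrays, while Lum, Thy1 and Fap lay below it on every array. Of 14 macrophage and leukocyte markers, 4 lay above the median on all 12 arrays (Csf1r, Cd14, Laptm5 and Cd3e). On at least 1 array 8 did so, among them Cd68 on 11 arrays and Cd79a on 8. Ptprc, Adgre1, Itgam, Tyrobp, Aif1 and Cd52 lay below the median on every array. The summed leukocyte marker signal was 353 to 372 in AMN107-IFNg, 387 to 427 in AMN107-IFNa, 420 to 425 in AMN107, 424 to 452 in IFNg, 397 to 407 in IFNa and 441 to 447 in DMSO. In these bulk samples, fewer cells of a type and less RNA per cell cannot be told apart.

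Differences are given as log2(signal + 8.66), with the standard error (SE) of limma and p adjusted by Benjamini-Hochberg over all 24353 tested probe sets; 0.05 was the threshold. Folds are the same differences on a linear scale, so for dim probe sets they understate the ratio of signals. Of the 10 p200 probe sets 9 were tested. The exception was 1425008_a_at, shared by Ifi203, LOC100862473 and Ifi203-ps, which lay above the array median on 1 of 12 arrays. Its signals were 24.8 and 20.3 in AMN107-IFNg, 16.1 and 16.6 in AMN107-IFNa, 15.4 and 14.8 in AMN107, 15.2 and 13.3 in IFNg, 12.1 and 11.6 in IFNa and 8.75 and 12.3 in DMSO.

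**Figure D2:**
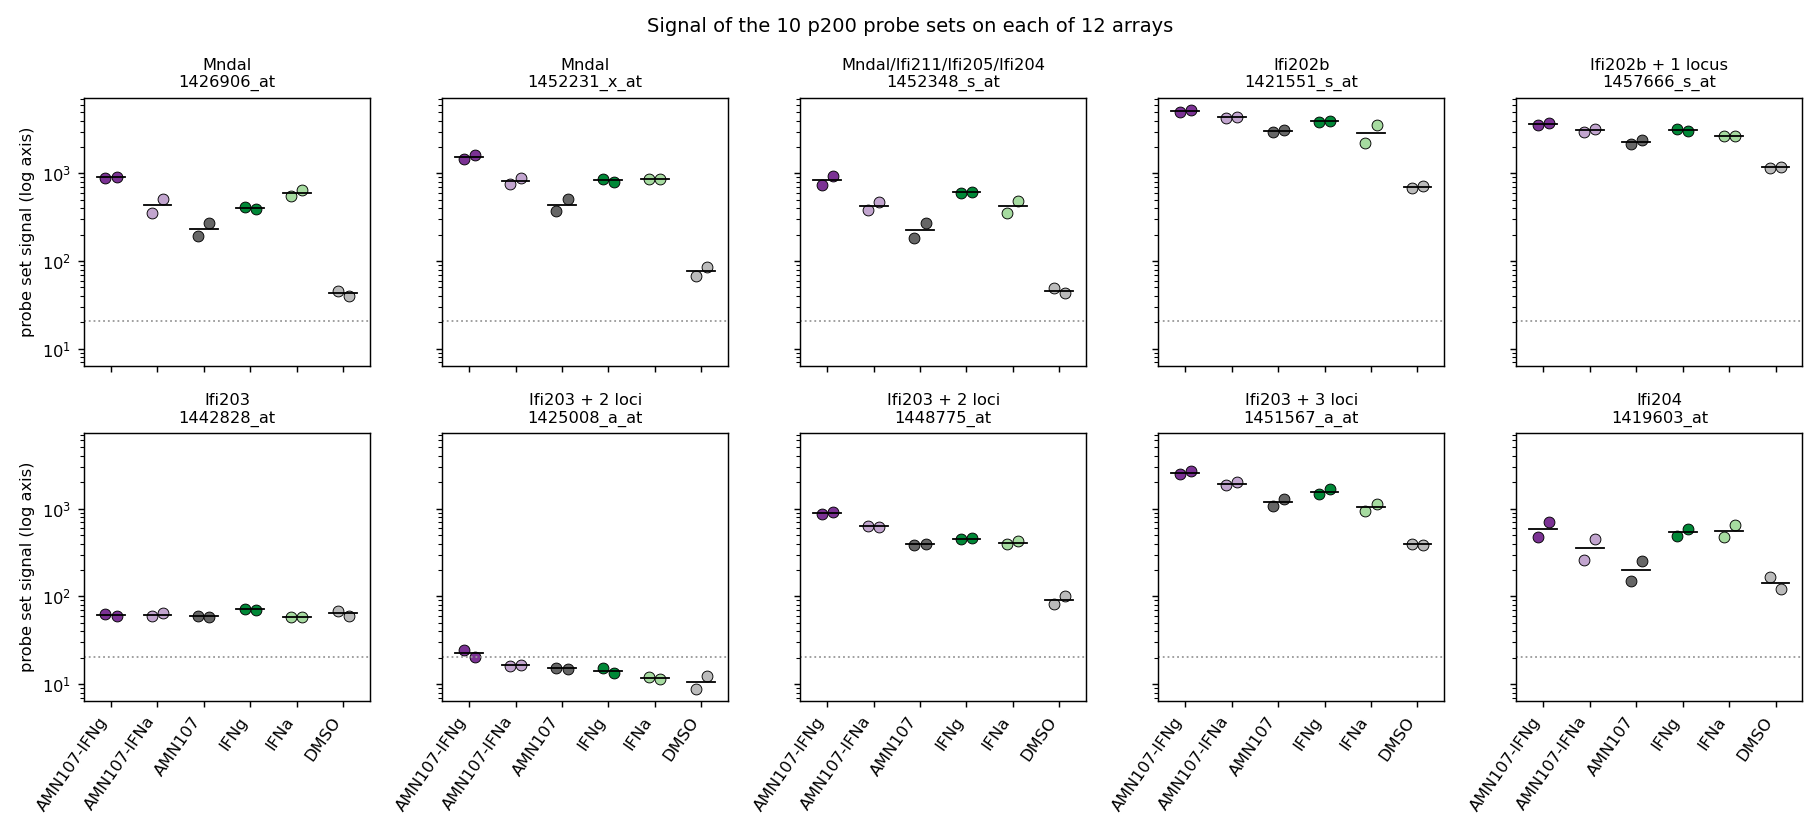
Signal of each of the 10 p200 probe sets (y axis, probe set signal in arbitrary units on a log scale) on each of the 12 arrays, by group (x axis). Points are arrays, bars are group means and the dotted line is the lowest array median; DMSO is the lowest group in every panel except the flat Ifi203 probe set 1442828_at.

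Either interferon alone raised the probe sets of Mndal, Ifi202b and Ifi204 and 2 of the 3 shared Ifi203 sets, and AMN107 alone raised all of these except 1419603_at, the set of Ifi204 alone. After IFNa, 8 of 9 tested p200 probe sets were higher than in DMSO and none was lower, against 8.91% of all tested probe sets higher and 3.08% lower; their median difference was 1.99, against 0.05 over all tested. After IFNg, 8 of 9 were higher and none lower, against 6.66% of all higher and 2.33% lower, with a median of 2.21 against -0.02. After AMN107 without interferon, 7 of 9 were higher and none lower, against 20.7% of all higher and 12.4% lower, with a median of 2.002 against 0.03. Without IFNa replicate 2 the count for IFNa was again 8. With the IFNa and DMSO arrays fitted on their own, 5 passed. These 3 comparisons share the DMSO arrays.

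Some marker genes passed in the AMN107 comparison as well, where 12.4% of all tested probe sets were lower and 20.7% higher. Of 10 tested fibroblast markers 3 were lower in AMN107 than in DMSO and 1 was higher. The collagen gene Col3a1 gave -2.31 ± 0.14 (adjusted p = 7.7e-06), the growth factor receptor Pdgfrb -1.29 ± 0.17 (adjusted p = 0.000644), Col6a1 -0.51 ± 0.10 (adjusted p = 0.00526) and the matrix gene Fn1 0.65 ± 0.21 (adjusted p = 0.0349). The summed fibroblast marker signal was 5143 to 5259 in AMN107 and 4565 to 4754 in DMSO. Most of this sum was Vim, at 2786 to 4816 over the 12 arrays, so it is not read as fibroblast content. The median difference of the 10 tested fibroblast markers was -0.23, against 0.03 over all tested probe sets. Of 4 epithelium markers, both tested ones were lower in AMN107, Krt8 at -0.71 ± 0.12 (adjusted p = 0.00244) and Epcam at -0.61 ± 0.12 (adjusted p = 0.00388). The summed signal of all 4, the dim Cdh1 and Krt18 included, was 80.1 to 93.6 in AMN107, against 142 on each DMSO array. Of 6 tested leukocyte markers 2 were lower in AMN107 and none higher, against the same shares over all tested probe sets. The part of these shifts in the p200 differences was not tested.

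Mndal, named for its likeness to the human myeloid cell nuclear differentiation antigen, and the set it shares with Ifi211, Ifi205 and Ifi204 showed the largest differences from DMSO after IFNg and after IFNa; after AMN107 the Ifi202b set 1421551_s_at (2.12) lay between the Mndal sets (2.39 and 2.19) and the shared set (2.08). The probe set 1452231_x_at, of Mndal alone, gave 1467 and 1633 in AMN107-IFNg, 749.0 and 882.7 in AMN107-IFNa, 372.1 and 506.7 in AMN107, 865.0 and 796.2 in IFNg, 864.4 and 863.4 in IFNa and 67.8 and 84.6 in DMSO. No treated array came near the DMSO arrays, and the 2 AMN107 arrays without interferon were the lowest of the treated ones. The difference from DMSO was 3.31 ± 0.15 (SE) after IFNg (9.93-fold, adjusted p = 6.82e-07), 3.37 ± 0.15 after IFNa (10.3-fold, adjusted p = 1.78e-06) and 2.39 ± 0.15 after AMN107 (5.25-fold, adjusted p = 9.55e-06). Without IFNa replicate 2 the IFNa difference was also 3.37 (limma adjusted p = 6.63e-09). The suffix _x_at marks probe sets in which some probes resemble other genes.

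The second Mndal probe set, 1426906_at, gave 888.1 and 909.1 in AMN107-IFNg, 354.8 and 512.6 in AMN107-IFNa, 191.1 and 270.2 in AMN107, 415.3 and 390.1 in IFNg, 548.7 and 640.0 in IFNa and 46.2 and 40.3 in DMSO. Here too the DMSO arrays were lowest, and both IFNa arrays lay above both IFNg arrays. Differences from DMSO were 2.99 ± 0.19 after IFNg (adjusted p = 7.23e-06), 3.54 ± 0.19 after IFNa (adjusted p = 5.47e-06; 3.43 without IFNa replicate 2) and 2.19 ± 0.19 after AMN107 (adjusted p = 4.46e-05). The probe set shared by Mndal, Ifi211, Ifi205 and Ifi204, 1452348_s_at, gave 745.1 and 943.0 in AMN107-IFNg, 378.7 and 468.4 in AMN107-IFNa, 181.3 and 272.0 in AMN107, 601.3 and 610.3 in IFNg, 357.5 and 487.5 in IFNa and 49.4 and 42.9 in DMSO. In contrast to 1426906_at, both IFNg arrays lay above both IFNa arrays. It rose by 3.49 ± 0.21 after IFNg (adjusted p = 4.62e-06), 2.96 ± 0.21 after IFNa (adjusted p = 3.52e-05; 2.74 without IFNa replicate 2) and 2.08 ± 0.21 after AMN107 (adjusted p = 0.000112), and its signal cannot be split among the 4 genes.

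Ifi202b encodes p202, which has HIN domains but no pyrin domain and is known as an inhibitor of the AIM2 inflammasome. Its probe set 1421551_s_at gave 5000 and 5265 in AMN107-IFNg, 4321 and 4402 in AMN107-IFNa, 2966 and 3128 in AMN107, 3880 and 3966 in IFNg, 2218 and 3519 in IFNa and 679.6 and 710.7 in DMSO. The IFNa replicates were far apart, and the AMN107 arrays fell between them. The rise over DMSO was 2.48 ± 0.16 after IFNg (5.59-fold, adjusted p = 8.14e-06), 1.99 ± 0.16 after IFNa (3.98-fold, adjusted p = 8.46e-05) and 2.12 ± 0.16 after AMN107 (4.34-fold, adjusted p = 2.22e-05). Without IFNa replicate 2 the IFNa rise was 1.66 (adjusted p = 6.78e-10), and with the IFNa and DMSO arrays fitted alone it did not pass (adjusted p = 0.115).

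The Ifi202b set shared with LOC100044068, 1457666_s_at, gave 3527 and 3784 in AMN107-IFNg, 2995 and 3248 in AMN107-IFNa, 2178 and 2417 in AMN107, 3199 and 3007 in IFNg, 2648 and 2691 in IFNa and 1160 and 1197 in DMSO. Its order of groups matched that of 1421551_s_at except that IFNa lay above AMN107. It rose by 1.39 ± 0.07 after IFNg (adjusted p = 1.72e-06), 1.17 ± 0.07 after IFNa (adjusted p = 1.5e-05; 1.16 without IFNa replicate 2) and 0.96 ± 0.07 after AMN107 (adjusted p = 2.45e-05). AMN107-IFNa and IFNg arrays overlapped.

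Ifi203 encodes p203, a nuclear family member. The probe set 1451567_a_at, shared with Ifi203-ps, LOC100862473 and LOC102641031, gave 2480 and 2689 in AMN107-IFNg, 1852 and 2008 in AMN107-IFNa, 1085 and 1282 in AMN107, 1463 and 1664 in IFNg, 940.9 and 1124 in IFNa and 398.8 and 385.2 in DMSO. The groups stood in steps, with the AMN107 and IFNa arrays overlapping. It rose by 1.97 ± 0.11 after IFNg (3.92-fold, adjusted p = 3.93e-06), 1.37 ± 0.11 after IFNa (2.59-fold, adjusted p = 0.000119; 1.25 without IFNa replicate 2) and 1.57 ± 0.11 after AMN107 (2.97-fold, adjusted p = 1.79e-05). The IFNa call was lost when only the IFNa and DMSO arrays were fitted (adjusted p = 0.104).

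The set 1448775_at, shared by Ifi203, LOC100862473 and Ifi203-ps, gave 869.5 and 921.5 in AMN107-IFNg, 640.0 and 622.4 in AMN107-IFNa, 383.4 and 399.9 in AMN107, 448.0 and 458.3 in IFNg, 393.7 and 424.3 in IFNa and 81.7 and 101.9 in DMSO. The replicates of each treated group lay close together, and every treated array was above both DMSO arrays. Rises over DMSO were 2.21 ± 0.11 after IFNg (adjusted p = 8.63e-07), 2.06 ± 0.11 after IFNa (adjusted p = 4.23e-06; 2.01 without IFNa replicate 2) and 2.002 ± 0.11 after AMN107 (adjusted p = 3.61e-06).

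The probe set annotated to Ifi203 alone, 1442828_at, did not follow the shared sets. It gave 62.2 and 59.3 in AMN107-IFNg, 60.0 and 64.0 in AMN107-IFNa, 59.5 and 58.8 in AMN107, 72.5 and 70.8 in IFNg, 58.8 and 58.3 in IFNa and 68.8 and 59.2 in DMSO. All 12 arrays lay between 58.3 and 72.5, above the array medians. Differences from DMSO were 0.15 ± 0.09 for IFNg (adjusted p = 0.337), -0.11 ± 0.09 for IFNa (adjusted p = 0.367; -0.11 without IFNa replicate 2) and -0.10 ± 0.09 for AMN107 (adjusted p = 0.419), none past the threshold of limma. The transcript region that this set probes is not given in the files.

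Ifi204 encodes p204, a DNA sensor that signals through STING and is often set beside human IFI16. Its probe set 1419603_at gave 478.4 and 697.9 in AMN107-IFNg, 256.9 and 451.6 in AMN107-IFNa, 148.9 and 252.7 in AMN107, 487.5 and 588.9 in IFNg, 473.2 and 647.7 in IFNa and 165.0 and 121.1 in DMSO. The replicates were well apart in each group, and the AMN107 arrays without interferon overlapped with DMSO. It rose by 1.86 ± 0.32 after IFNg (3.63-fold, adjusted p = 0.00578) and 1.91 ± 0.32 after IFNa (3.75-fold, adjusted p = 0.0145; 1.68 without IFNa replicate 2), while the difference for AMN107 was 0.43 ± 0.32 (adjusted p = 0.308). The IFNg call was lost without DMSO replicate 2 or IFNg replicate 2. The IFNa call was lost without either DMSO array, with array weights, and with the IFNa and DMSO arrays fitted alone. The 2 sets that did not pass for AMN107 were 1419603_at of Ifi204 and 1442828_at of Ifi203, and whether they differed from the other sets in this was not tested; the set that Ifi204 shares with Mndal, Ifi211 and Ifi205 did pass.

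**Figure D3:**
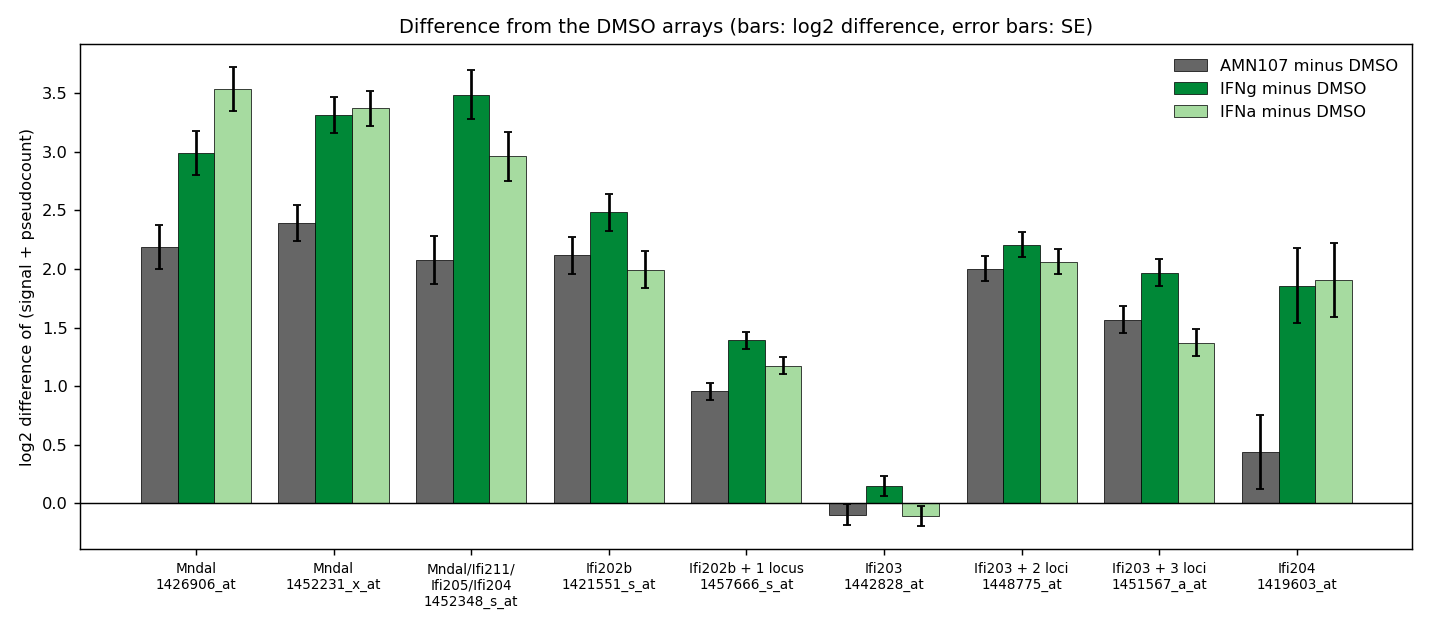
Differences from the DMSO arrays for the 9 tested p200 probe sets. Bars are limma's log2 differences of signal + 8.66 for AMN107, IFNg and IFNa, and error bars are SE; the Mndal sets reach 3.54, AMN107 leaves Ifi204 at 0.43, and the Ifi203 set 1442828_at stays between -0.11 and 0.15.

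The interferon responses were then measured on top of AMN107. With IFNg, 8 of 9 tested p200 probe sets were higher in AMN107-IFNg than in AMN107 and none was lower, against 1.74% of all tested probe sets higher, with a median of 1.18 against -0.03 over all. Mndal rose by 1.81 ± 0.15 on 1452231_x_at (3.51-fold, adjusted p = 0.000106), the shared Ifi203 set 1451567_a_at by 1.13 ± 0.11 (2.18-fold, adjusted p = 0.000341) and Ifi204 by 1.53 ± 0.32 on 1419603_at (2.89-fold, adjusted p = 0.0396). The set of Ifi203 alone, 1442828_at, gave 0.03 ± 0.09 (adjusted p = 0.997). Ifi202b rose by 0.75 ± 0.16 on 1421551_s_at (1.68-fold, adjusted p = 0.0443). That last call was lost when any single array outside the IFNa group was left out, and the Ifi204 call without any DMSO, IFNg or AMN107-IFNg array or without AMN107 replicate 1.

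With IFNa, none of the 9 passed between AMN107-IFNa and AMN107, and 0.119% of all tested probe sets were higher. The median difference was 0.71, against -0.02 over all tested probe sets. Both AMN107-IFNa arrays lay above both AMN107 arrays for 9 of 9, the flat 1442828_at included, and 8 had an unadjusted p under 0.05 in limma. The shares of all tested probe sets that did so were not counted, so these 2 counts are not read as a result. The single-set differences ran from 0.06 on the Ifi203 set 1442828_at to 0.90 on the set of Mndal, Ifi211, Ifi205 and Ifi204. Counts differed with the setting: 7 passed without IFNa replicate 2, 7 without IFNa replicate 1, 7 without both IFNa arrays, 7 with array weights, 5 with the AMN107-IFNa and AMN107 arrays alone and 3 after quantile normalization. No IFNa array enters this difference, so leaving IFNa arrays out or fitting the 2 groups alone changed the spread and not the values; quantile normalization and array weights can change the values too, and over all alternatives that left out no single array the difference of 1452231_x_at ran from 0.87 to 0.91 and that of 1426906_at from 0.85 to 0.91.

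Set against each interferon alone, the combinations differed by gene. In AMN107-IFNg against IFNg, 4 of 9 were higher and none lower, against 11% of all tested probe sets higher, and the median was 0.46 against 0.01. Mndal was higher by 1.14 ± 0.19 on 1426906_at (2.21-fold, adjusted p = 0.00329) and 0.89 ± 0.15 on 1452231_x_at (adjusted p = 0.00403). The shared Ifi203 sets were higher by 0.97 ± 0.11 on 1448775_at (1.96-fold, adjusted p = 0.000377) and 0.72 ± 0.11 on 1451567_a_at (adjusted p = 0.00265). Ifi202b gave 0.39 ± 0.16 (adjusted p = 0.133) and Ifi204 gave 0.11 ± 0.32 (adjusted p = 0.857). Without either IFNa replicate both sets of Ifi202b and the set of Mndal, Ifi211, Ifi205 and Ifi204 passed as well. Their differences were unchanged and only the spread that all groups share differed. Without IFNa replicate 2 a larger share of all tested probe sets passed too.

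In AMN107-IFNa against IFNa, 4 of 9 were higher and none lower, against 11.2% of all higher and 12.9% lower, with a median of 0.07 against 0.00 over all. The shared Ifi203 sets were higher by 0.90 ± 0.11 on 1451567_a_at (1.87-fold, adjusted p = 0.000656) and by 0.62 ± 0.11 on 1448775_at (adjusted p = 0.00288). Ifi202b was higher by 0.64 ± 0.16 on 1421551_s_at (adjusted p = 0.0159), and the set it shares with LOC100044068, 1457666_s_at, by 0.22 ± 0.07 (adjusted p = 0.0487). Mndal gave -0.47 ± 0.19 on 1426906_at (adjusted p = 0.0981) and Ifi204 -0.69 ± 0.32 (adjusted p = 0.145). Without IFNa replicate 2 the count was again 4, all higher. Without IFNa replicate 1, 4 were higher and 2 lower, Mndal on 1426906_at at -0.58 (adjusted p = 0.021) and Ifi204 at -0.91 (adjusted p = 0.0282). The set 1426906_at was also lower without AMN107-IFNa replicate 2, where 2 were higher. The count was 2 without AMN107-IFNa replicate 1, and 0 with these groups alone. The difference of 1421551_s_at was 0.97 without IFNa replicate 2 and 0.31 without IFNa replicate 1, past the threshold in both, and its call was lost without either AMN107-IFNa array. The call of 1457666_s_at was lost in 15 of 22 alternatives.

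The interaction asks whether the response to interferon with AMN107 differed from the response without it. For IFNg, 6 of 9 p200 probe sets had a smaller response with AMN107 and none a larger one, against 1.26% of all tested probe sets, with a median of -1.03 against 0.00. Ifi202b had -1.73 ± 0.22 on 1421551_s_at (adjusted p = 0.00832), Mndal -1.50 ± 0.22 on 1452231_x_at (adjusted p = 0.0122) and the shared Ifi203 set 1448775_at -1.03 ± 0.15 (adjusted p = 0.0122). Ifi204 had -0.33 ± 0.45 (adjusted p = 0.831). All 6 calls were lost without DMSO replicate 1, IFNg replicate 1, AMN107 replicate 2 or either AMN107-IFNg array, and most without IFNg replicate 2. Leaving out an IFNa array changed no difference here, only the spread that all groups share. Without IFNa replicate 2 a larger share of all tested probe sets passed too.

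For IFNa, 6 of 9 had a smaller response with AMN107 and none a larger one, against 0.152% of all, with a median of -1.39 against -0.08. Mndal had -2.65 ± 0.26 on 1426906_at (adjusted p = 0.00297) and -2.48 ± 0.22 on 1452231_x_at (adjusted p = 0.00167), the shared Ifi203 set 1448775_at -1.39 ± 0.15 (adjusted p = 0.00518) and Ifi202b -1.48 ± 0.22 on 1421551_s_at (adjusted p = 0.0407). Ifi204 had -1.12 ± 0.45 (adjusted p = 0.209). Without IFNa replicate 2 the count was 6 and the value of 1426906_at was -2.54 (adjusted p = 6.49e-05). It was 3 without either DMSO, IFNg or AMN107-IFNg array or AMN107-IFNa replicate 1, 2 without AMN107 replicate 2 or AMN107-IFNa replicate 2, and 1 with the 4 groups of the contrast alone. A smaller response on this scale is relative to the start in AMN107, which lay above DMSO for the sets that passed. The levels in AMN107-IFNg were the highest of all groups for Mndal, Ifi202b and the shared Ifi203 sets. Mean levels in AMN107-IFNa lay below IFNa for Mndal, at 434 against 594 on 1426906_at and 816 against 864 on 1452231_x_at. They lay above IFNa for Ifi202b on 1421551_s_at, at 4362 against 2868, and for 1448775_at, at 631 against 409. The part of the higher start in the smaller responses was not tested.

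**Figure D4:**
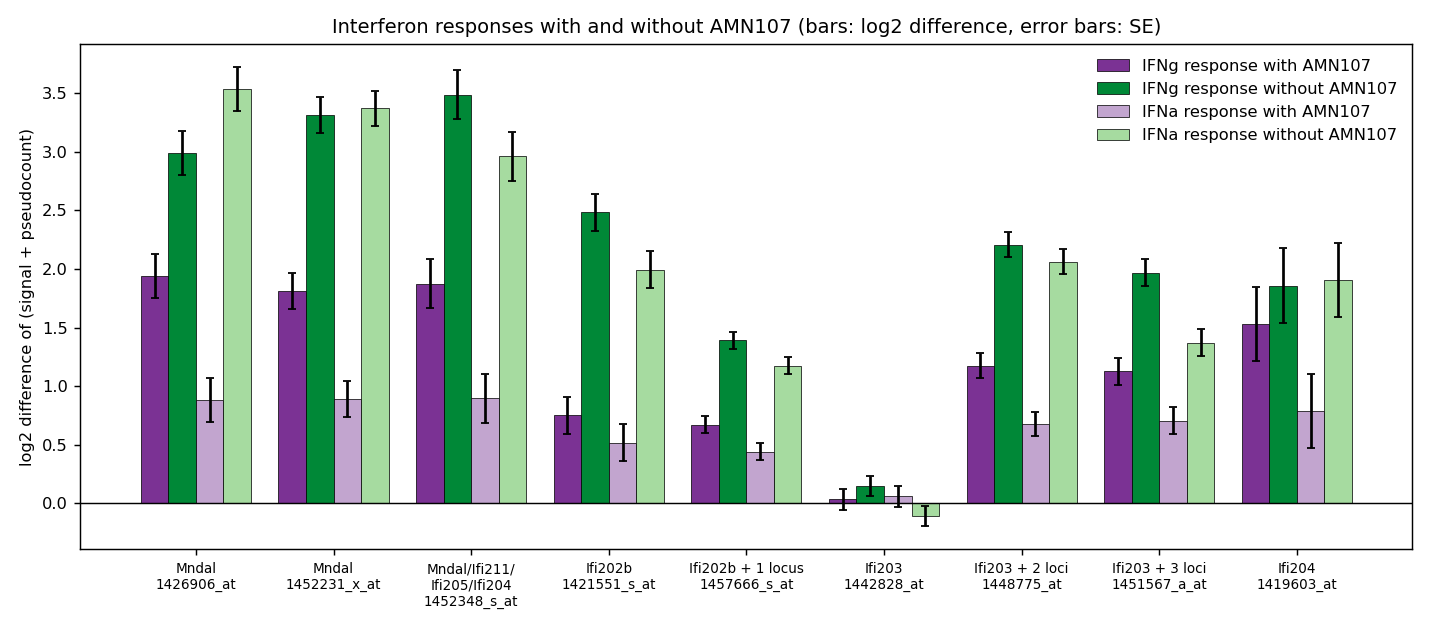
Interferon responses of the 9 tested p200 probe sets with and without AMN107. Bars are limma's log2 differences (AMN107-IFNg minus AMN107, IFNg minus DMSO, AMN107-IFNa minus AMN107, IFNa minus DMSO) and error bars are SE; on the Mndal set 1426906_at the IFNa response is 0.88 with AMN107 and 3.54 without it.

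Between the interferons, IFNg against IFNa gave 1 of 9 higher and none lower, against 4.48% of all tested probe sets higher and 9.65% lower, with a median of 0.22 against -0.04. The 1 set was 1451567_a_at, shared by Ifi203 and its related loci, higher by 0.60 ± 0.11 (adjusted p = 0.0125). Mndal gave -0.55 ± 0.19 on 1426906_at (adjusted p = 0.0738) and -0.06 ± 0.15 on 1452231_x_at (adjusted p = 0.812). With IFNa replicate 2 left out more p200 sets passed, all higher. The share of all tested probe sets that passed as higher was larger then too. Without IFNa replicate 1, 3 passed as higher and 1 as lower, Mndal on 1426906_at at -0.66 (adjusted p = 0.0104). None passed without IFNg replicate 2. Ifi202b on 1421551_s_at passed without IFNa replicate 2, at 0.82 (adjusted p = 6.24e-07), against 0.49 ± 0.16 (adjusted p = 0.0641) with all arrays.

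With AMN107 present, AMN107-IFNg against AMN107-IFNa gave 2 of 9 higher and none lower, against 0.928% of all, with a median of 0.50 against -0.01. Both were Mndal sets, 1426906_at at 1.06 ± 0.19 (2.08-fold, adjusted p = 0.0275) and 1452231_x_at at 0.92 ± 0.15 (1.89-fold, adjusted p = 0.0191). Both AMN107-IFNg arrays lay above both AMN107-IFNa arrays for 8 of 9 sets, and the share over all tested probe sets was not counted. The count was 6 without either IFNa replicate, 1 without either IFNg array or AMN107-IFNa replicate 2, and 0 without AMN107-IFNa replicate 1 or either AMN107-IFNg array.

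Ordered by mean signal over 2 arrays, AMN107-IFNg was highest for every p200 probe set except 1442828_at, and DMSO lowest for every set except that one. Ifi202b on 1421551_s_at ran 5133 ± 187 (SD) in AMN107-IFNg, 4362 ± 57.4 in AMN107-IFNa, 3923 ± 61.0 in IFNg, 3047 ± 115 in AMN107, 2868 ± 920 in IFNa and 695 ± 22.0 in DMSO. Of these neighbours only AMN107 and IFNa had overlapping arrays. Mndal on 1452231_x_at ran 1550 ± 117 in AMN107-IFNg, 864 ± 0.718 in IFNa, 831 ± 48.6 in IFNg, 816 ± 94.6 in AMN107-IFNa, 439 ± 95.1 in AMN107 and 76.2 ± 11.9 in DMSO, and the 3 middle groups overlapped with their neighbours. Ifi204 ran 588 ± 155 in AMN107-IFNg, 560 ± 123 in IFNa, 538 ± 71.7 in IFNg, 354 ± 138 in AMN107-IFNa, 201 ± 73.4 in AMN107 and 143 ± 31.0 in DMSO. Its 3 highest groups overlapped, as did AMN107 and DMSO.

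The genes with the most similar profile were taken by Pearson correlation over the 6 group means, among 1680 probe sets of 1 gene outside the family whose means spanned at least 1 log2 unit. The values describe 6 points from the same 12 arrays. For Mndal they were Parp9 (0.993), Nmi (0.993), Nampt (0.993), H2-D1 (0.990) and Trim30a (0.990). For Ifi202b they were Anxa7 (0.998), Resf1 (0.997), Xaf1 (0.996), Eif2ak2 (0.994) and Trim12c (0.989). For Ifi204 they were Sp100 (0.982), Tapbp (0.976), Etnk1 (0.972), Sfmbt2 (0.971) and Usp25 (0.968). The flat Ifi203 set 1442828_at spanned 0.26 log2 units and reached at most 0.880, with Fads2. Between members, the means of Ifi202b (1421551_s_at) and the shared Ifi203 set 1448775_at correlated at 0.984 over the 6 groups, and those of Ifi204 and Ifi202b (1421551_s_at) at 0.754.

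Other p200 genes were measured mainly by a set shared by Ifi211 and Ifi205, 1452349_x_at. It gave 891.2 and 1194 in AMN107-IFNg, 293.0 and 246.8 in AMN107-IFNa, 118.2 and 106.0 in AMN107, 474.7 and 449.5 in IFNg, 286.9 and 345.6 in IFNa and 44.8 and 44.1 in DMSO. The AMN107-IFNg arrays stood well above all others, and the AMN107 arrays were the lowest of the treated ones. It rose over DMSO by 3.15 ± 0.15 after IFNg (8.86-fold, adjusted p = 8.52e-07), 2.61 ± 0.15 after IFNa (adjusted p = 9.23e-06; 2.48 without IFNa replicate 2) and 1.18 ± 0.15 after AMN107 (2.27-fold, adjusted p = 0.000433). Its IFNg response over AMN107 was 3.11 ± 0.15 (8.62-fold, adjusted p = 1.56e-06), so the interaction with IFNg was -0.04 ± 0.21 (adjusted p = 0.966). Its IFNa response over AMN107 was 1.20 ± 0.15 (2.30-fold, adjusted p = 0.0289), and the interaction with IFNa passed, at -1.40 ± 0.21 (adjusted p = 0.0406; -1.27 without IFNa replicate 2). Aim2, the sensor of the AIM2 inflammasome that p202 inhibits, gave 3.25 to 5.60 on all 12 arrays, below the array medians, as did Ifi207 and Ifi213. One Ifi209 set, 1435331_at, reached 25.2 and 20.8 in AMN107-IFNg and 12.8 or less on all other arrays, and was above the median on 1 array.

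Among 15 genes of cytosolic DNA sensing, the pathway in which p204 acts, 13 were tested. Higher than in DMSO were 5 after IFNg (none lower), against 6.66% of all tested probe sets, 5 after IFNa (none lower), against 8.91%, and 5 after AMN107, against 20.7%, with 1 lower, against 12.4%. There were 7 higher and 2 lower after IFNg without IFNa replicate 2, where 17.2% of all tested probe sets were then higher and 11.5% lower, and 4 higher after IFNa, against 4.89%. List medians were 0.43 after IFNg, 0.46 after IFNa and 0.26 after AMN107, against -0.02, 0.05 and 0.03 over all tested. Zbp1, a sensor of Z-form nucleic acid, rose by 3.46 ± 0.20 after IFNg (adjusted p = 3.92e-06), 1.98 ± 0.20 after IFNa (adjusted p = 0.00055; 2.35 without IFNa replicate 2) and 1.02 ± 0.20 after AMN107 (adjusted p = 0.00422). Trim30a, an interferon-inducible ubiquitin ligase, rose by 2.60 ± 0.15 after IFNg (adjusted p = 4.62e-06), 3.51 ± 0.15 after IFNa (adjusted p = 1.78e-06; 3.32 without IFNa replicate 2) and 2.05 ± 0.15 after AMN107 (adjusted p = 2.24e-05). The IFNa response of Trim30a was smaller with AMN107 (interaction -2.23 ± 0.22, adjusted p = 0.00277), the same sign as in the p200 sets that passed. Samhd1, which restricts viruses by degrading nucleotides, rose by 1.78 ± 0.10 after IFNg (adjusted p = 3.01e-06). Cgas, the enzyme that makes the STING ligand from DNA, was higher by 0.60 ± 0.09 in AMN107-IFNg than in IFNg (adjusted p = 0.00162). Ifnb1 lay below the median on all 12 arrays.

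Of 12 inflammasome genes 4 were tested: Casp4, Casp12, Gsdmd and Nlrp3. Casp4 lay above the array median on 6 of 12 arrays and Casp12 on 7, with lowest signals of 16.9 and 10.7. Both passed the filter through the arrays where they were bright, so the count of higher genes after IFNg is not read as a result. After IFNg 2 were higher than in DMSO, against 6.66% of all tested probe sets, Casp12 by 2.60 ± 0.15 (adjusted p = 4.62e-06) and Casp4, the mouse caspase-11 that senses cytosolic lipopolysaccharide, by 1.49 ± 0.12 (adjusted p = 5.73e-05). Casp4 had a larger IFNg response with AMN107 (interaction 1.03 ± 0.17, adjusted p = 0.0207), the opposite sign from the p200 sets that passed. After AMN107 alone 2 were lower, Nlrp3 at -0.34 ± 0.09 (adjusted p = 0.0178) and Gsdmd at -0.33 ± 0.10 (adjusted p = 0.0309), against 12.4% of all tested probe sets lower. After IFNa Nlrp3 was lower, at -0.41 ± 0.09 (adjusted p = 0.0308), a call that was lost without IFNa replicate 2 (adjusted p = 0.0867). Casp1, Pycard, Il1b and Il18 lay below the median on every array.

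For the interferon receptors and their transcription factors, 15 genes were tested. After IFNg 8 were higher than in DMSO and none lower, against 6.66% of all tested probe sets higher. After IFNa 4 were higher (3 without IFNa replicate 2) and none lower, against 8.91% higher (4.89% without that array). After AMN107 7 were higher and 1 lower, against 20.7% and 12.4%. List medians were 0.56 after IFNg, 0.26 after IFNa and 0.28 after AMN107, against -0.02, 0.05 and 0.03 over all tested. Irf9, the DNA-binding partner of STAT2, rose by 1.32 ± 0.17 after IFNg (adjusted p = 0.00126), 1.44 ± 0.17 after IFNa (adjusted p = 0.00216; 1.11 without IFNa replicate 2) and 1.49 ± 0.17 after AMN107 (adjusted p = 0.000271). Irf7, which amplifies type I interferon responses, rose by 1.31 ± 0.24 after IFNg (adjusted p = 0.00915), 1.40 ± 0.24 after IFNa (adjusted p = 0.0168; 1.87 without IFNa replicate 2) and 1.63 ± 0.24 after AMN107 (adjusted p = 0.00108). Stat2 rose by 1.39 ± 0.15 after IFNg (adjusted p = 0.000362) and 0.85 ± 0.15 after AMN107 (adjusted p = 0.00272). Its difference after IFNa was 0.40 ± 0.15 (adjusted p = 0.0873). Ifngr2 rose by 0.90 ± 0.19 after AMN107 (adjusted p = 0.00666). Irf8, above the array median on 5 of 12 arrays, had the largest IFNg difference of this list, 3.01 ± 0.08 (adjusted p = 1.81e-08). The IFNg response of Irf8 was smaller with AMN107 (interaction -0.81 ± 0.12, adjusted p = 0.0125), the same sign as in the p200 sets that passed. Irf1, a factor induced through GAS, rose by 2.89 ± 0.12 after IFNg (adjusted p = 3.08e-07) and by 0.42 ± 0.12 after IFNa (adjusted p = 0.0498), a call that was lost without IFNa replicate 2 (adjusted p = 0.112).

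Of 14 genes of growth control whose products are known partners or targets of p200 proteins, 12 were tested. After IFNg none was higher than in DMSO and 1 lower, against 6.66% of all tested probe sets higher and 2.33% lower. After IFNa 1 was higher and none lower, against 8.91% and 3.08%. After AMN107 2 were higher and 2 lower, against 20.7% and 12.4%, so these counts lie near the share over all probe sets. Leaving out IFNa replicate 2, 5 were higher and 2 lower after IFNg, against 17.2% and 11.5% of all, 2 higher after IFNa, against 4.89%, and 5 higher and 2 lower after AMN107, against 32% and 20.2%. Rb1, the retinoblastoma protein that p202 and p204 bind, rose by 0.79 ± 0.11 after AMN107 (adjusted p = 0.000629), and Id2, an inhibitor of helix-loop-helix factors that p204 is known to bind, fell, with a difference of -0.83 ± 0.11 (adjusted p = 0.000677). Id2 was also lower in AMN107-IFNg than in IFNg, at -1.06 ± 0.11 (adjusted p = 0.000336). List medians lay between 0.07 and 0.13 in these 3 comparisons, against -0.02 to 0.05 over all tested probe sets.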

How the data were processed

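Probe set signals of 12 Affymetrix arrays were read from the series' value table. The deposited values are linear intensity; the submitters' processing notes name MAS5, with no version, setting or scaling rule, and the genome build is not given in the sources used here. Genes came from the platform annotation, and those of the members were matched by gene ID to RefSeq. After 64 control sets were left out, the test kept probe sets brighter than their array's median on 2 or more of the 12 arrays (24353 sets). Values were taken as log2(signal + 8.66), 8.66 being the mean over arrays of the 25th percentile, with no further normalization. limma 3.58.1 in R 4.3.3 fitted 1 mean per group to all 12 arrays (lmFit, contrasts.fit, eBayes with trend), for 11 contrasts, two-sided, adjusted by Benjamini-Hochberg; all groups share 1 spread per probe set. The script was tested on simulated data. Only sets of exactly 1 gene stood for list genes, the brightest tested one each. List genes were named where past the threshold among the 4 largest differences of a list and contrast, or as known regulators. Members and lists were chosen with earlier results of these data known. The number of arrays limits the precision. Alternatives covered the pseudocount, filter, normalization, spread, arrays in the fit and a replicate block; lists without IFNa replicate 2 were added after seeing the data.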

Additional observations from a re-analysis of the deposited data

Results flagged for a closer look

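The interferon responses of these probe sets differed between cells with AMN107 and cells without it, by limma's interaction test. For IFNa the values (log2, response with AMN107 minus response without) were -2.65 for Mndal on 1426906_at, -2.48 for Mndal on 1452231_x_at, -2.06 for the set of Mndal, Ifi211, Ifi205 and Ifi204, -1.48 for Ifi202b on 1421551_s_at, -0.73 for Ifi202b with LOC100044068 and -1.39 for the shared Ifi203 set 1448775_at.

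For IFNg the values were -1.50 for Mndal on 1452231_x_at, -1.61 for the set of Mndal, Ifi211, Ifi205 and Ifi204, -1.73 for Ifi202b on 1421551_s_at, -0.72 for Ifi202b with LOC100044068, -1.03 for the shared Ifi203 set 1448775_at and -0.84 for the shared Ifi203 set 1451567_a_at. Probe sets of the same gene are not independent of each other.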

How the results depend on the processing

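Counts of called p200 sets for AMN107 against DMSO (7), IFNg against DMSO (8) and AMN107-IFNg against AMN107 (8) stayed within 1.5 times under the alternatives that refitted these counts. With 1 probe set per gene only 4 p200 sets, each of 1 gene, remained, so no count was taken: 43 of their differences kept their side of the threshold, and Mndal on 1452231_x_at came to pass for AMN107-IFNa against AMN107. The count for IFNa against DMSO (8) was 5 with the groups alone. For AMN107-IFNa against AMN107 (0) it was 1 with a larger pseudocount, 2 with a stricter filter, 3 after quantile normalization, 1 without a trend, 7 with array weights, 5 with the groups alone, 7 without both IFNa arrays, and 0 to 7 with 1 array left out. For IFNg against IFNa (1) it was 2 after quantile normalization, 0 with array weights or the groups alone, and 0 to 4 with 1 array left out. AMN107-IFNa against IFNa (4) gave 2 with array weights, 0 with the groups alone and 2 to 6 with 1 array left out. Leaving out IFNa replicate 1 made 1 of the 4 calls for IFNg against IFNa and 2 of the 6 for AMN107-IFNa against IFNa lower ones, and leaving out AMN107-IFNa replicate 2 made 1 of 3 in the second comparison lower. AMN107-IFNg against IFNg (4) gave 7 with array weights, the groups alone or no IFNa arrays, and up to 7 with 1 array left out. AMN107-IFNg against AMN107-IFNa (2) gave 5 with array weights, 6 with the groups alone or without both IFNa arrays, and 0 to 6 with 1 array left out. The interaction with IFNa (6) gave 1 with the groups alone and 2 to 8 with 1 array left out, and that with IFNg (6) gave 0 to 7. Where an array outside the contrast was left out, only the shared spread had changed; the cause of the other changes was not tested. Without IFNa replicate 2 a larger share of all tested probe sets passed in every comparison except IFNa against DMSO. A rise in the p200 counts in that fit is therefore not read as particular to these sets. With 2 arrays a group, a p that misses the threshold does not show equal levels.

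With the replicate number as a replicate block, AMN107-IFNa against AMN107 gave 1 call and IFNg against IFNa 2; no other count of calls moved by over 1.5 times. The labels do not say that the numbers link groups. Deviations of same-numbered arrays correlated, over the 15 group pairs, at -0.140 to 0.321, over 0.1 in 3 and under -0.1 in 4, so the block is not read as pairing.

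Signs turned only for differences that had not passed. For AMN107-IFNa against IFNa, the set of Mndal, Ifi211, Ifi205 and Ifi204 was -0.0148 after median centring and -0.207 to 0.232 with 1 array left out, and Mndal on 1452231_x_at -0.204 to 0.0308. For IFNg against IFNa, Ifi204 was 0.0300 after quantile normalization and -0.269 to 0.176 with 1 array left out, and Mndal on 1452231_x_at 0.0168 after quantile normalization and -0.116 to 0.00175 with 1 array left out. With 1 array left out, Ifi204 ran from -0.161 to 0.376 for AMN107-IFNg against IFNg and from -0.692 to 0.0376 for the interaction with IFNg, and the Ifi203 set 1442828_at from -0.0666 to 0.0142 for AMN107-IFNg against AMN107-IFNa.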
